A study of Mus musculus with 112 samples.

Results

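Among 112 RNA-seq libraries of mouse gastrocnemius, 10 held little mRNA of Acta1, the alpha-actin of the skeletal muscle thin filament. They were chosen by that value alone: a library counted as low when its Acta1 level was under 50% of the median of all 112, in CPM (the count scaled to a common library total) after TMM scaling (trimmed mean of M-values, which corrects library totals for a few dominant genes). The series covers 56 Diversity Outbred mice, an outbred stock derived from several inbred founder strains, of which 28 were female and 28 male. All were 16 weeks old and wore a cast on 1 hind limb for 3 weeks, and the gastrocnemius of the immobilized limb and of the uncast control limb gave 1 library each. In all 56 animals the immobilized limb was the right and the control limb the left, so cast and body side cannot be told apart. The 10 low libraries came from 10 different animals. The immobilized limb was low in females 2, 22, 41 and 42 and in male 35, and the control limb was low in females 26, 44 and 48 and in males 52 and 55. The partner of each is the other limb of the same animal, so that 5 partners were control limbs of cast animals and 5 were immobilized limbs. The remaining 46 animals gave 92 libraries, 46 immobilized and 46 control. Because Acta1 chose the libraries, every gene of the contrast between a low library and its partner is given as a description, with no test.

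The gastrocnemius is the large calf muscle. Behind it, in the hollow of the knee, the popliteal lymph node lies in a pad of fat, and skin covers the whole. A lymph node holds B cell follicles, a T cell zone and specialised vessels, the high endothelial venules, through which lymphocytes enter from blood. Fat is known from lipid droplet and adipokine genes, and the epidermis from its keratins. Bulk RNA measures a tissue piece as a whole, so that fewer muscle cells and less muscle RNA per cell cannot be told apart.

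All levels below are CPM of the plain library total, unless TMM is named. Totals lay between 2246635 and 5278279 counts in the low libraries and between 2289921 and 4715394 in the partners. The low library had the smaller total in 7 of the 10 pairs. A count of 0 allows up to 3 counts, which is 0.568 to 1.34 CPM at these depths and covers counting error only. The TMM factor, at 1.38 to 1.86 in the low libraries against 0.741 to 1.26 in the other 102, separated them from all others. That factor is part of the scaled Acta1 level that made the choice, so the separation is partly set by the choice. Each low library resembled its own animal: over 150 genes that differ between animals, its other limb ranked first of 56 candidate libraries in 10 of 10 cases, at correlations of 0.695 to 0.941 across genes against at most 0.459 for any other animal.

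Acta1 in the low libraries, as a percent of the series median after TMM scaling, was 42.3 in female 41, 39.4 in male 55, 32.7 in female 22, 27.2 in female 44, 21.6 in female 2, 20.5 in female 26, 11.8 in female 48, 11.6 in female 42, 10.9 in male 35 and 0.0109 in male 52. The nearest libraries outside the choice, the immobilized limbs of females 3 and 30 and the control limb of male 13, stood at 63.5, 64.4 and 66.0%. The partners lay between 79.6 and 159%. In male 52 the Acta1 signal was 28 counts of 5278279.

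Other genes of the skeletal muscle fibre were low together with Acta1. The list of 30 fibre genes includes contractile proteins, calcium handling and glycolytic enzymes. It also holds Acta1, so its sum is partly set by the choice. The list summed to between 174 and 132437 CPM in the low libraries (median 79900) and to between 233675 and 279012 CPM in the partners. All 10 lay below the lowest of the other 102 libraries, at 151116 CPM. The muscle share of the low library was 56.7% of its partner's in female 41, 48.0% in female 22, 47.9% in male 55, 42.0% in female 44, 37.4% in female 2, 25.6% in female 26, 24.6% in female 48, 22.5% in female 42, 13.7% in male 35 and 0.0686% in male 52. Male 52 therefore kept almost none of it, and the other 9 kept a measurable part.

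Within each pair the 29 fibre genes other than Acta1 had a median log2 ratio of -0.87 in female 41 to -2.85 in male 35, and of -11.86 in male 52. In 9 of the 10 pairs all 29 were lower in the low library. The exception was Tpm2, a tropomyosin of the thin filament, at a log2 ratio of 0.34 in female 41, where the other 28 were lower; after TMM scaling Tpm2 was lower there as well. Ckm, the muscle creatine kinase, was at 1.52 CPM in male 52 and 2109 to 11636 CPM in the other 9 low libraries, against 18137 to 24275 CPM in the partners. Myh4, the myosin of type IIB fibres, was at 0.189 CPM in male 52 and at 2637 to 16924 CPM in the other 9, against 23907 to 43309 CPM in the partners.

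Genes of slow fibres were low as well, with a median log2 ratio of -1.74 for their summed list and 10 of 10 pairs lower. That sum was nearly equal in 1 pair, male 35, at a log2 ratio of -0.17. Fbxo32 and Trim63, the ubiquitin ligases known as atrogin-1 and MuRF1 that rise in wasting muscle, were both lower in all 10 low libraries than in any partner. Trim63 reached 0 to 110.7 CPM in the low libraries, against 124 to 418 CPM in the partners. Cdkn1a, a cell cycle inhibitor on the same denervation and atrophy list that is not particular to muscle, was higher instead, at 209 to 657 CPM in low libraries against 46.7 to 290.5 CPM in partners. Runx1, a transcription factor on that list, was at 7.01 to 74.2 CPM in low libraries against 0.276 to 16.8 CPM in partners, and 8 low libraries lay above every partner. The whole list of 10 genes summed to 519 to 884 CPM in low libraries and 514 to 1127 CPM in partners, with a median log2 ratio of -0.11 and 3 of 10 pairs higher, and after TMM scaling of -0.75 with 0 pairs higher.

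**Figure D1:**
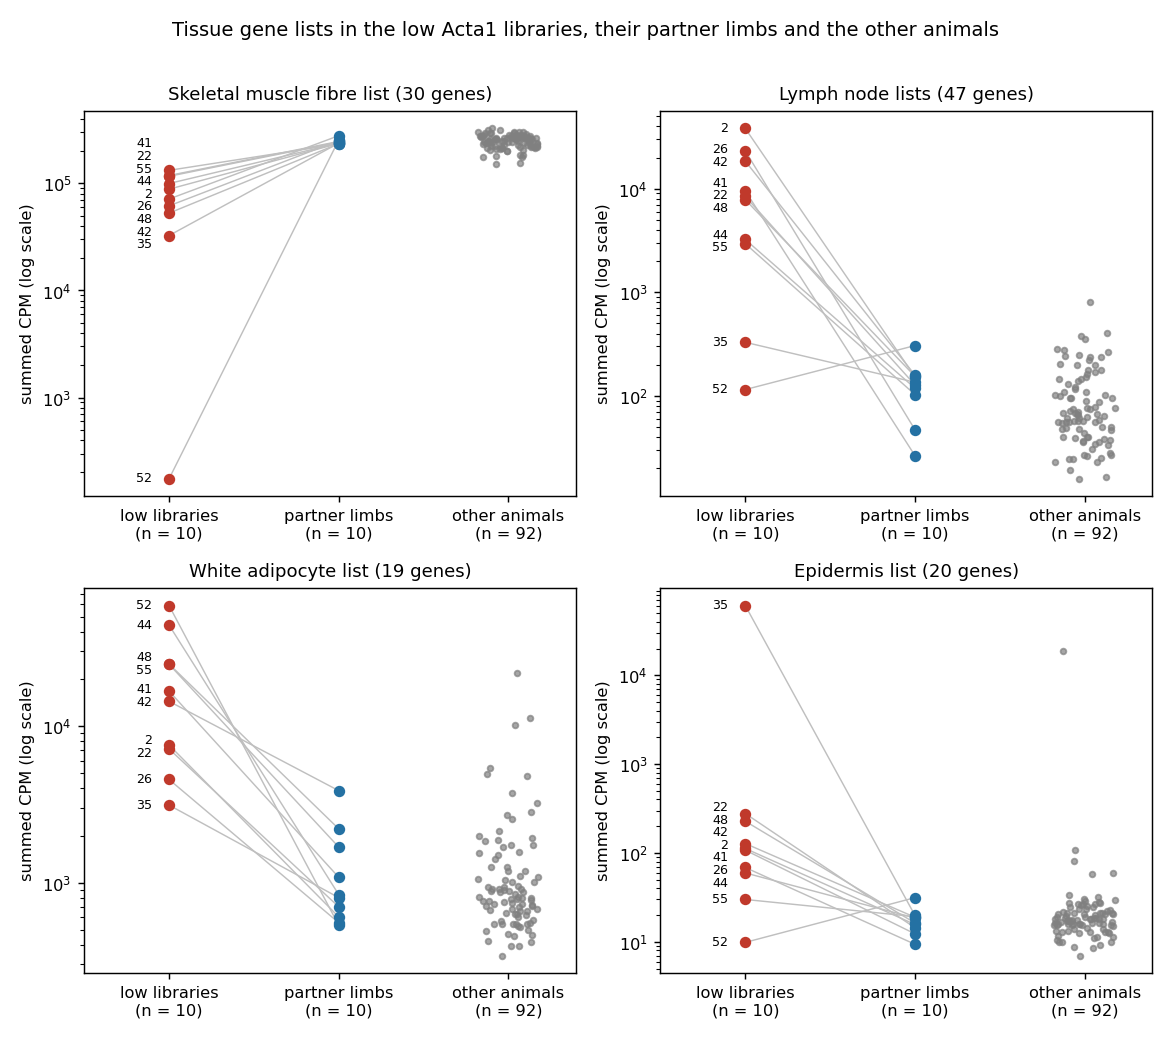
Summed CPM (log scale) of 4 gene lists in the 10 low libraries, their 10 partner limbs and the 92 libraries of other animals; each point is a library, lines join the limbs of 1 animal, and numbers are animals. All 10 low libraries lie below every other library for muscle genes, and 8, 4 and 1 of them lie above every other library for the lymph node, white adipocyte and epidermis lists.

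The genes that were high in place of the muscle genes differed between libraries. They were followed with 3 lists: 47 lymph node genes (B cell, T cell and lymph node stroma), 19 white adipocyte genes and 20 epidermis genes. Every one of the 10 low libraries exceeded all 102 others in at least 1 of the 3 lists, and 3 exceeded them in 2. The lymph node list did so in 8 libraries (females 2, 22, 26, 41, 42, 44 and 48 and male 55), the white adipocyte list in 4 (females 44 and 48 and males 52 and 55) and the epidermis list in 1 (male 35). Other lists did so too, among them smooth muscle and ribosomal protein genes in 7 each, mast cell in 6 and blood endothelium in 5. The slow fibre, tendon, Schwann cell, red blood cell and brown adipocyte lists did so in 0. No such count was made over all genes, so it is not read as particular to the 3 tissues.

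Lymph node genes were summed at 38203 CPM in female 2, 23195 in female 26, 18470 in female 42, 9540 in female 41, 8433 in female 22, 7836 in female 48, 3236 in female 44 and 2947 in male 55, and at 329 CPM in male 35 and 115 CPM in male 52. Their partners held 26.5 to 306 CPM, and the highest of the other 102 libraries, the control limb of female 23, held 808 CPM. On this sum the 8 libraries lay apart from all others, while male 35 and male 52 lay inside the range of the rest. On its stroma genes alone male 35 lay above the rest too, at 134 CPM against at most 57.3 CPM in the other 102. Most of that sum came from 1 gene, Ccl21a, while Glycam1 of the same list was at 0.556 CPM (both are described below).

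The vessels and stroma of the node were among the clearest signals. Glycam1, a ligand for L-selectin made by high endothelial venules, was at 1354 CPM in female 26, 874 in female 48, 753 in female 22, 512 in female 42, 505 in female 41, 332 in female 44, 109 in female 2 and 57.2 in male 55. It was at 0.556 CPM in male 35 and 0 in male 52, against at most 0.273 CPM in any partner and 17.3 CPM in any other library. Ccl21a, the chemokine that draws T cells and dendritic cells to the node, was at 189.7 to 869 CPM in the same 8 libraries and at 111 CPM in male 35, against 2.21 to 34.5 CPM in the partners. All 9 lay above every one of the other 102 libraries. Cxcl13, the chemokine of B cell follicles, was highest in female 2 at 543 CPM and was 59.1 to 217 CPM in the other 7, against at most 2.67 CPM in a partner.

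T cell genes summed to 715.6 to 2518 CPM in the 8 libraries, against 3.14 to 22.7 CPM in the 10 partners. Trac and Trbc2, constant regions of the T cell receptor, were higher in all 10 low libraries than in any partner, and Trbc2 exceeded all 102 other libraries in 9. Male 35 reached 166 CPM on this list and male 52 reached 65.9 CPM. Cd79a, a signalling subunit of the B cell receptor, was at 70.5 to 904 CPM in the 8, at 0.833 CPM in male 35 and at 2.08 CPM in male 52, against 0 to 0.445 CPM in the partners.

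Ighm, the heavy chain of IgM, was an exception among the B cell genes because partners also held it, at 6.15 to 277.6 CPM (median 99.6). It made up most of the partners' B cell sum, which is why that sum was lower in the low library than in the partner in males 35 and 52, with log2 ratios of -1.94 and -2.91. On the T cell list the same 2 pairs were higher, at 3.39 and 2.19.

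Antibody genes separated the 8 libraries from each other. Ighg1, the heavy chain of IgG1, was at 44810 CPM in female 2, 16510 in female 26, 13511 in female 42, 7652 in female 41, 2153 in female 48, 623 in female 22, 602 in male 55 and 116 in female 44. In the partners it was at 0 in 8 of 10, and at 1.42 CPM at most. Igkc, the kappa light chain constant region, ran from 30970 CPM in female 2 down to 442 CPM in female 44, and Jchain, which joins antibody units in secreting plasma cells, from 4135 CPM in female 2 to 46.3 CPM in female 44. Genes of immunoglobulin chains and Jchain together took 12.3% of all counts in female 2, 3.78% in female 26, 2.99% in female 42, 1.77% in female 41 and 0.714% or less in the other 6.

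The make-up by heavy chain class, as a share of counts not divided by gene length, also differed. Ighg1 took 81.7% of heavy chain counts in female 26, 79.2% in female 41, 77.7% in female 42, 68.5% in female 2, 58.6% in female 48 and 51.5% in male 55, but 26.0% in female 22 and 13.6% in female 44. Ighm, with Ighd the class of B cells that have not switched, took 43.0% in female 22 and 49.1% in female 44, and 4.42% in female 2. Ighe, the chain of IgE, took 6.51% in female 42, 5.16% in female 41 and 3.44% in female 26, and under that in the others. Constant region genes resemble each other, and how the authors treated reads that fit several of them is not given in the sources used here.

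**Figure D2:**
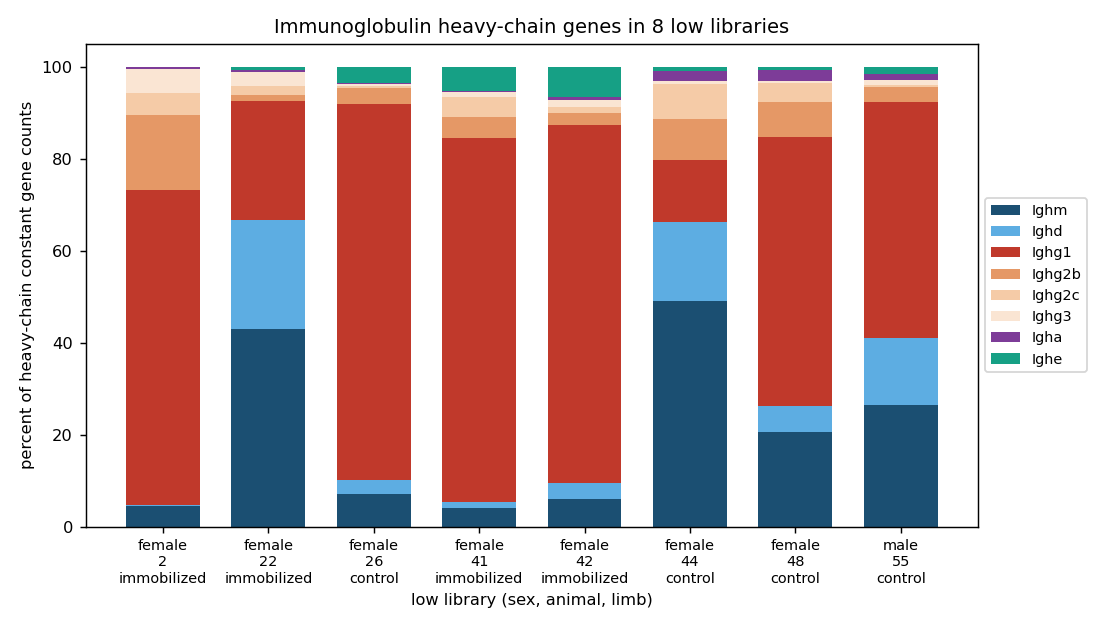
Share of heavy-chain constant gene counts (percent) taken by each class in the 8 low libraries with a lymph node signal; each bar is 1 library, labelled by sex, animal and limb. Ighg1 takes 51.5% or more in 6 bars and 26.0% and 13.6% in females 22 and 44, where Ighm takes 43.0% and 49.1%.

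Genes of antigen presentation were high as well. Cd74, the invariant chain of MHC class II, was at 11801 CPM in female 26, 5847 in female 42, 4633 in female 22, 2936 in female 48, 2393 in female 2, 2181 in female 41, 1485 in female 44, 1439 in male 55, 945 in male 35 and 341 in male 52, against 8.00 to 348 CPM in the partners (median 26.0). The low libraries of 9 animals exceeded the highest of the other 102, at 634 CPM, and male 52 did not. The summed lists of class II presentation and of plasma cells exceeded all 102 others in the same 9 low libraries. The list of NK and cytotoxic cells did so in 9 as well, but with male 35 as the exception. It was at 4.17 CPM in male 35 and 20.3 CPM in male 52, against at most 5.11 CPM in the other 102. Marco, a scavenger receptor of macrophages in lymphoid sinuses, was at 69.5 to 475 CPM in the 8 libraries with the lymph node signal, at 0.758 CPM in male 52 and at 0 in male 35, against 0 in all partners. The macrophage list as a whole, with the complement genes C1qa, C1qb and C1qc, had a median log2 ratio of 3.42.

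Fat genes were higher in all 10 pairs. The white adipocyte list summed to 58949 CPM in male 52, 44220 in female 44, 24926 in female 48, 24839 in male 55, 16736 in female 41, 14407 in female 42, 7575 in female 2, 7151 in female 22, 4561 in female 26 and 3129 in male 35, against 535 to 3870 CPM in the partners. The first 4 lay above the highest of the other 102 libraries, the control limb of male 13 at 21708 CPM, and the others lay within the range of the rest. Adipoq, the adipokine adiponectin, was at 2403 CPM in male 52 and 1012 CPM in female 48, and at 38.1 to 532 CPM in the other 8, against 2.48 to 84.1 CPM in the partners.

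The libraries rich in fat genes were not alike. Scd1 and Fasn, enzymes of fatty acid synthesis, were at 18054 and 10827 CPM in female 44 but at 2510 and 1698 CPM in female 48. Fabp4, which carries fatty acids inside adipocytes, was at 14675 CPM in male 52 and 5903 CPM in female 48, against 4321 CPM in female 44. Ucp1, the uncoupling protein of heat-making brown fat, was at 986 CPM in male 52, 665 in male 55, 257.5 in female 44, 236 in female 41 and 171 in female 42, but at 2.20 CPM in female 48 and 0 in female 2. It reached at most 12.0 CPM in a partner, while the highest other library, again from outside the 10 animals, was at 1179 CPM. Cidea, another brown fat gene, was at 442 CPM in male 52 and 312 CPM in male 55, against at most 14.7 CPM in a partner.

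Skin genes were far higher in 1 low library than in the other 9. In the immobilized limb of male 35 the epidermis list summed to 61017 CPM, against 19.8 CPM in the partner. Krt1 and Krt10, keratins of the differentiating layers, were at 13639 and 11578 CPM, against 0 and 2.10 CPM in the partner. Krt14 and Krt5, keratins of the basal layer, were at 10416 and 6571 CPM, and both were at 0 in the partner. Hair follicle and sebaceous genes came with them, at 11176 CPM in sum, as did Col1a1, a chain of type I collagen, at 12456 CPM against 573 CPM in the partner. The epidermis sum of the other 9 low libraries was 9.85 to 278 CPM, and the highest other library, the immobilized limb of female 30, was at 18999 CPM with 64.4% of the median Acta1. The epidermis sum of the partners was 9.38 to 31.4 CPM. It was higher in the low library in 9 of 10 pairs, and at least 4-fold higher in 7. The median log2 ratio was 2.81 in CPM and 1.99 after TMM scaling. Krt10 alone was at 0.549 to 19.8 CPM in the low libraries other than male 35, against 1.33 to 6.84 CPM in the partners. On that gene the groups overlapped.

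Another epithelial signal was high in all 7 female low libraries and in 1 of the 3 male ones. The glandular list, built from the keratins of simple epithelia (Krt8, Krt18, Krt19), tight junction genes and milk proteins, summed to 183 to 1212 CPM in the 7 female low libraries (median 348), against 0.855 to 45.6 CPM in the partners of the females. In the males it was at 0.947 CPM in male 52, 2.06 CPM in male 55 and 463 CPM in male 35, against at most 4.45 CPM in the partners of the males. Male 35 thus lay above the female median, and a difference between the sexes was not tested. In male 35 the sum came from Epcam (225 CPM) and Cldn4 (198 CPM), while Krt8, Krt18 and Krt19 were at 0.833 to 6.11 CPM. Csn3, kappa-casein, was at 6.69 to 232 CPM in the 7 female low libraries and at 0 in the 3 male ones, against up to 9.56 CPM in the partners of the females, so that low and partner values overlapped. These genes were singled out after their values were seen. High values were not restricted to the low libraries: the immobilized limb of female 46, with Acta1 at 106.7% of the median, held 1044 CPM.

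**Figure D3:**
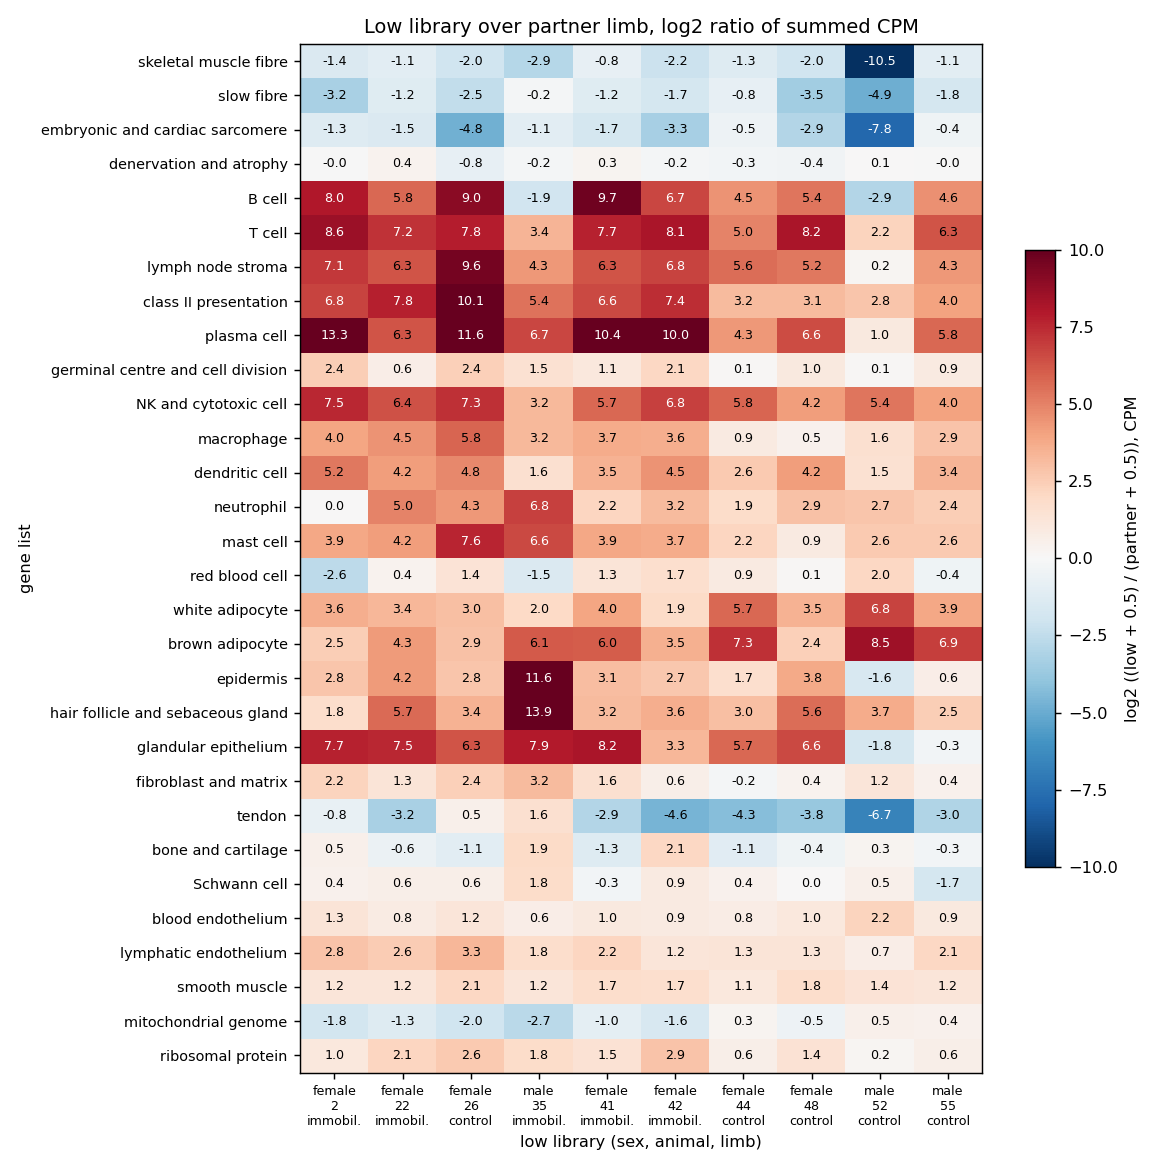
Log2 ratio of summed CPM (pseudocount 0.5), low library over partner limb, for each gene list (rows) and each of the 10 pairs (columns). Muscle lists are below 0 in every pair, T cell and fat lists are above 0 in every pair, and the epidermis list reaches 11.6 in male 35.

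Across all genes, the median ratio over the 10 pairs was at least 4-fold higher in the low libraries for 2461 of 14483 genes with a mean of at least 1 CPM (17.0%), and at least 4-fold lower for 113 (0.780%). On that measure 18 of 18 B cell, 21 of 21 T cell, 8 of 8 lymph node stroma, 10 of 10 class II, 17 of 19 white adipocyte and 6 of 20 epidermis genes were higher, against 3 of 30 muscle fibre genes that were 4-fold lower. These counts used the contrast that chose the libraries, and nothing is read from them. CPM is a share of the library, so a smaller share of abundant genes raises the share of all others: the median gene had a log2 ratio of 0.82 in CPM and of 0.17 after TMM scaling, and 72.5% of the genes past 4-fold were higher after TMM scaling, against 95.6% in CPM.

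Genes with only a predicted or clone name, such as Gm with digits, were left out of the ranking by median ratio. So were genes under a mean of 10 CPM. Among the rest, the genes with the highest median ratio over the 10 pairs were Igkc, Ighg1, Glycam1, Ighd, Cd79a, Ighg2b, Marco, Trbc2, Trac, Jchain, Gimap3, Iglc2, Ms4a1, Ltb and Cd79b, and all but Glycam1 and Marco are genes of lymphocytes. Those with the lowest were Chad, Ostn, Kera, Mss51, Fmod, Angptl7, Cilp2, Tnmd, Sim2 and Six2, of which Chad, Kera, Fmod and Tnmd encode proteins of tendon and cartilage matrix. Mss51, which is expressed in fast muscle, was at 0.758 to 56.1 CPM in the low libraries, against 101.7 to 677 CPM in the partners.

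Tendon genes were lower too. They summed to 13.8 to 2383 CPM in the low libraries, against 72.5 to 1462 CPM in the partners, and 7 of 10 pairs were at least 4-fold lower. Female 26 and male 35 were higher in the low library, at log2 ratios of 0.51 and 1.63, and on TMM scaling only male 35 remained higher. Tnmd, tenomodulin, was at 0 to 4.16 CPM in 9 low libraries and at 77.2 CPM in male 35, against 1.10 to 27.6 CPM in the partners.

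Endothelial, smooth muscle and lymphatic vessel lists were higher in 10 of 10 pairs, with median log2 ratios of 0.98, 1.32 and 1.93 in CPM. After TMM scaling the medians were 0.27, 0.74 and 1.31, and 9, 10 and 10 pairs were higher. The Schwann cell list had a median log2 ratio of 0.48 in CPM but -0.22 after TMM scaling, so its direction depends on the scaling. Haemoglobin genes, which mark blood, were highest of all 112 libraries in a partner, the control limb of female 2, at 4763 CPM for their list, against at most 1629 CPM in any other library. The low library of that animal held 781 CPM.

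The share moved between limbs was large. Summed over genes, the CPM that the low library gained over its partner came to between 26.6 and 58.3% of a library (median 44.9%). Plasma cell genes took 12.5% and lymph node genes 7.47% of that gain in female 2, while white adipocyte genes took 15.0% in female 44 and 11.8% in male 52, and epidermis genes took 10.5% in male 35. The lists therefore name only part of each gain. Ribosomal protein genes, a list of 89 that was added after the gains were seen, took between 0.523% (male 52) and 13.9% (female 42). They were higher in CPM in all 10 pairs, at a median log2 ratio of 1.43 in CPM and 0.71 after TMM scaling, where 8 of 10 pairs were higher.

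Transcripts of the mitochondrial genome, as a share of all counts, were higher than in the partner in 3 low libraries. They took 20.1% of counts in male 52, 19.5% in male 55 and 14.0% in female 44, each above its partner (14.5, 14.8 and 11.4%), and took 17.6, 11.4 and 9.09% of the gain in male 55, male 52 and female 44. In the other 7 low libraries they took 2.01 to 8.30%, each below its partner (10.1 to 21.4%). After TMM scaling the low library was lower in all 10 pairs, at log2 ratios of -3.38 to -0.085. Male 52, male 55 and female 44 were also the libraries with the highest Ucp1 level of the 10. In females 41 and 42 Ucp1 lay above every partner too. Their mitochondrial shares were 8.30 and 5.34%, below those of their partners at 16.4 and 15.9%. A relation between Ucp1 and the mitochondrial share was not tested.

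**Figure D4:**
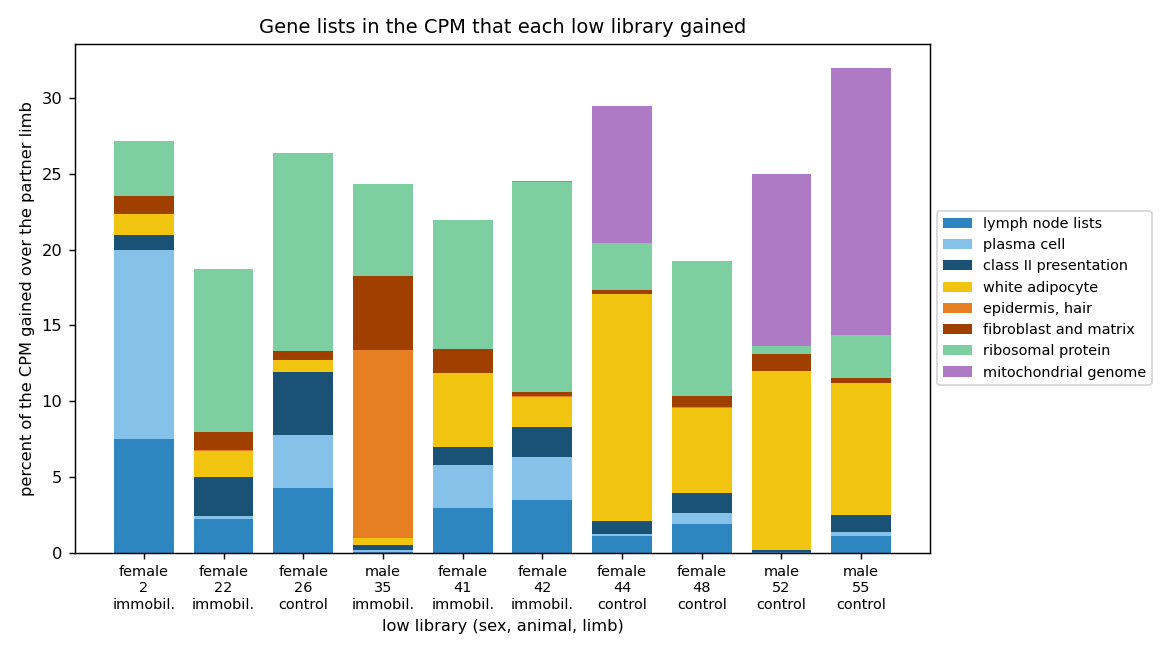
Share (percent) of the CPM each low library gained over its partner limb that fell on genes of 8 list groups; each bar is 1 low library. Plasma cell and lymph node genes lead in female 2, fat genes in female 44, skin genes in male 35, and mitochondrial transcripts in male 55. In male 52 fat genes (11.8%) and mitochondrial transcripts (11.4%) are close. Ribosomal protein genes are the largest group in females 22, 26, 41, 42 and 48.

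The genes that gained most, with predicted and clone names again left out, differ accordingly. In females 2, 26 and 41 they were led by Ighg1 and Igkc, in female 22 by Cd74, in male 35 by Krt1, in females 44 and 48 and male 52 by Scd1 or Fabp4, and in male 55 by mt-Co1. Eef1a1, a translation elongation factor, was among the first 5 in females 2, 22, 26, 41 and 48. Female 42 differed in that Lars2, a mitochondrial leucyl-tRNA synthetase, gained most, at 18047 CPM against 971 CPM in its partner. Lars2 was not particular to that library, since another library outside the 10 reached 28640 CPM.

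Other comparisons do not set a low library against its partner and could be tested. The first is whether the partner limb, which is not low itself, already differed from the limbs of animals with no low library. With edgeR's quasi-likelihood test on counts, sex as a covariate and Benjamini-Hochberg adjustment, 1 of 12328 genes passed an adjusted p of 0.05 between the 5 partner control limbs and 46 control limbs of other animals (0.00811%), and 1 of 12502 between the 5 partner immobilized limbs and 46 immobilized limbs (0.00800%). Unadjusted p under 0.05 was reached by 346 and 375 genes. Both calls were Gm3272, a predicted gene, at log2 fold changes of 6.82 ± 1.24 (SE, adjusted p = 0.0148) and 6.19 ± 1.01 (adjusted p = 0.00165).

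Gm3272 was at 3579 CPM in female 22, 3715 in female 42, 4589 in female 44 and 3814 in male 52 among the partners, and at 6.34 to 20.1 CPM in the other 6. In the other animals both limbs were above 100 CPM in 2 of 46, and no animal had only 1 limb above it. No library lay between 36.0 and 376 CPM. Each of the 4 animals was high in both limbs, and the call was lost without female 22 or female 42 (control) or female 44 (immobilized). It was also absent from both fits without the sex term, and the 3 calls of DESeq2 in immobilized limbs were all lower in the partners.

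Cd74, Adipoq and Krt10 did not pass the test in that contrast; Acta1 set the choice of both groups and is not tested. In control and in immobilized limbs the log2 fold change of Cd74 was -0.81 ± 0.65 and 0.32 ± 0.70, that of Adipoq -0.68 ± 0.92 and -0.79 ± 1.07, and that of Krt10 0.40 ± 0.34 and -2.83 ± 2.06 (SE), all with edgeR adjusted p of 0.999 or 1. These errors leave room for differences of several fold.

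The summed lists did not pass exact permutation tests either (two-sided, adjusted over 9 tests). Lymph node genes were at 26.5 to 158.8 CPM (median 135) in the 5 partner control limbs, against 15.8 to 808 CPM (median 65.9) in the 46 control limbs of other animals (exact permutation p = 0.417, adjusted p = 0.667). They were at 47.2 to 306 CPM (median 119) in the 5 partner immobilized limbs, against 16.4 to 409 CPM (median 67.6) in the 46 others (p = 0.196, adjusted p = 0.526). The fat and skin sums had adjusted p of 0.526 to 0.885 in both comparisons. Values of the groups overlapped throughout. In the partners most of the B cell sum was Ighm. That sum had a median of 105 CPM in the partners, against 132 CPM for the whole lymph node list, so the lymph node tests rest largely on Ighm.

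The second question is whether the low libraries of immobilized and control limbs differ. Between 5 low immobilized and 5 low control limbs, edgeR called 0 of 13986 genes (0%; 721 had an unadjusted p under 0.05), limma voom 0 and DESeq2 28. Without the filter on low counts edgeR called 108, all higher in immobilized limbs. The white adipocyte sum was 3129 to 16736 CPM (median 7575) in the low immobilized limbs and 4561 to 58949 CPM (median 24926) in the low control limbs (exact permutation p = 0.0952, adjusted p = 0.429). The epidermis sum was 107.6 to 61017 CPM (median 128) against 9.85 to 228 CPM (median 59.6; p = 0.0635, adjusted p = 0.429). The lymph node sum was 329 to 38203 CPM (median 9540) against 115 to 23195 CPM (median 3236; p = 0.444, adjusted p = 0.667). With 5 against 5 the smallest p is 0.00794, so the design could have passed an unadjusted threshold. After adjustment over the 9 tests that p would stay above 0.05 if only 1 tissue reached it. A single tissue could therefore not have passed here, however far apart its groups lay. Sex moves with the limb here, since 4 of the 5 low immobilized limbs but 3 of the 5 low control limbs were from females. Body side moves with it fully, since every immobilized limb was a right limb and every control limb a left limb.

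The third question is whether smaller losses of Acta1 in the other 46 animals go with the same tissues. The choice by Acta1 removed every animal with a low library, so only a narrow range was left: in the 46 the immobilized minus control difference of Acta1 ran from -0.87 to 0.53 in log2 CPM. Acta1 and the tissue sums are also shares of the same library total, so they are not independent measures. For these reasons the relations cannot decide the question, and no conclusion is drawn from them. The Acta1 difference had Pearson r = 0.14 with the lymph node sum (permutation p = 0.348, adjusted p = 0.400), -0.24 with fat (p = 0.115, adjusted p = 0.344) and -0.13 with skin (p = 0.400, adjusted p = 0.400), over 3 relations and 100000 permutations. Spearman's rho was 0.13, -0.23 and -0.033 (permutation p = 0.385, 0.128 and 0.829, adjusted p = 0.578, 0.383 and 0.829). Without animals 20 and 51, the farthest from the median in Acta1, r was -0.027, -0.16 and -0.23. The relation with fat passed after TMM scaling (r = -0.39, permutation p = 0.00755, adjusted p = 0.0226). Within animals numbered 1 to 20, 21 to 40 and 41 to 59, blocks of animal numbers for which the labels name no batch, r with fat was -0.25, -0.018 and -0.0094 in CPM (n = 19, 15 and 12 animals). In the same blocks r with the lymph node sum was 0.48, -0.42 and 0.61 (permutation p = 0.0373, 0.120 and 0.0425, adjusted p = 0.112, 0.278 and 0.0867), and r with skin was 0.014, -0.39 and 0.56 (adjusted p = 0.952, 0.278 and 0.0867). Within sexes r with fat was -0.050 in 21 females and -0.45 in 25 males (permutation p = 0.829 and 0.0225, adjusted p = 0.829 and 0.0675), and r with the lymph node sum was -0.14 in females and 0.36 in males (adjusted p = 0.802 and 0.103). Without Ighm on the list r with the lymph node sum was -0.25, so its sign rests on the list and on the animals taken.

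**Figure D5:**
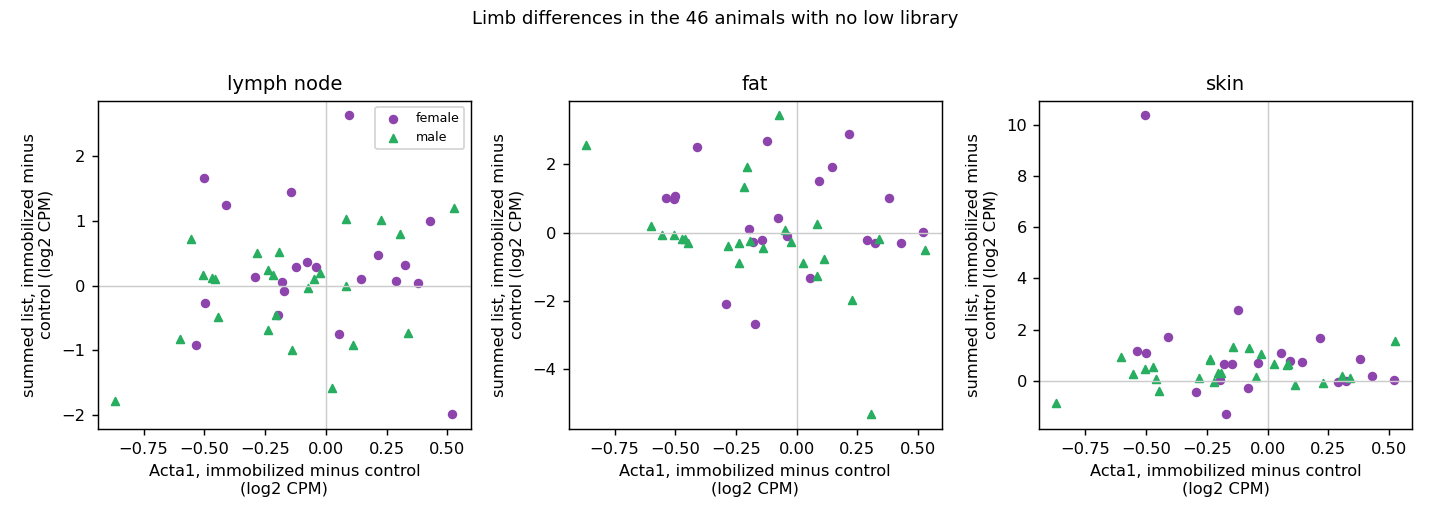
Immobilized minus control difference in log2 CPM of Acta1 (x axis) and of the lymph node, fat and skin sums (y axes) in the 46 animals with no low library; each point is 1 animal, circles female and triangles male. Acta1 differences stay within -0.87 and 0.53, and 1 animal, female 30, stands at a skin difference of 10.4.

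More females than males had a low library, but the difference did not pass its test, and the split by animal number was not tested. A low library came from 7 of 28 females and 3 of 28 males (25.0% and 10.7%; two-sided Fisher's exact test, p = 0.295). By animal number, 1 of 20 animals numbered 1 to 20, 3 of 18 numbered 21 to 40 and 6 of 18 numbered 41 to 59 had a low library. Whether the numbers follow the order of dissection is not given in the labels, and their part in the results was not tested.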

How the data were processed

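The authors deposited raw read counts per gene symbol for 32544 symbols, 1 table a sex; the values are whole numbers, and no row lacks a gene name. Libraries were stranded total RNA depleted of ribosomal RNA, per the labels' protocols; for the aligner, the counting tool, its strand setting and the build, the sources used here give no name. From the counts, CPM of the library total and TMM scaled CPM (edgeR 4.0.16, 11886 genes kept) were computed; ratios within a pair used log2 with a pseudocount of 0.5 CPM. The plan had named CPM of the library total for the choice, which leaves 7 of the 10 libraries under the threshold (females 22 and 41 and male 55 stood at 56.7, 68.1 and 56.6% of the median); the choice given here needs TMM scaling, and the 7 were run as an alternative.

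Pairs come from the animal numbers in the labels, and each low library ranked its own other limb first. Each group of 5 has 1 library per animal. The 3 fits used edgeR's quasi-likelihood test with TMM, a filter on low counts, sex as a term and Benjamini-Hochberg adjustment (DESeq2 1.42.0 and limma 3.58.1 as alternatives, R 4.3.3), checked on simulated data. Single values used exact permutation tests or 100000 resamples (SciPy 1.17.1, NumPy 2.4.6, Python 3.11.15, pandas 2.3.3).

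The 10 libraries, the 30 gene lists and the tests were chosen with earlier results of these data known. Genes named are the 4 markers, the 5 largest gains of each pair, the 15 highest and 10 lowest median ratios at 10 CPM or more, up to 5 members of each list and the calls of the fits. Genes with only a predicted or clone name were left out of the gains and of the median ratios. Named outside that rule, after their values were seen, were Tpm2, Csn3 and Ighe.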

Additional observations from a re-analysis of the deposited data

Results flagged for a closer look

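In 16 checks of 10 libraries each (4 gene lists and 4 marker genes, in the low and in the partner libraries), 5 held a library far from the other 9. The rule flags about 1 group in 20 by chance when groups are independent. These checks overlap, since Acta1, Adipoq and Krt10 are members of the lists, and the low libraries were chosen by Acta1. The number of flags is therefore not read against that rate. Among the low libraries, male 52 stood apart in the muscle fibre list at 174 CPM, against 32589 to 132437 CPM in the other 9, and in Acta1 at 5.30 CPM, against 5400 to 20338 CPM. Male 35 stood apart in the epidermis list at 61017 CPM, against 9.85 to 278 CPM, and in Krt10 at 11578 CPM, against 0.549 to 19.8 CPM. Among the partners, the immobilized limb of female 26 stood apart in the muscle fibre list at 279012 CPM, against 233675 to 253995 CPM. No difference between the effects of 2 groups was tested.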

How the results depend on the processing

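The 4 tissue ratios between low libraries and partners kept their direction under the 10 alternatives run (other scaling, pseudocount, subsets of pairs and the group medians with no replicate block), and moved by less than the spread between pairs. Counts of genes at a 4-fold ratio moved more: 1337 higher and 506 lower after TMM scaling, 1402 and 67 at a pseudocount of 2 CPM. The genes 4-fold lower numbered 174 in control low limbs alone, 67 without the pairs of animals 35 and 52, and 295 in the 7 libraries low by CPM of the library total; the last 2 alternatives, like the lymph node list without Ighm and the set without the pair of animal 35, were chosen after seeing the data. With no replicate block the paired log2 ratios became -1.60 for muscle, 5.94 for lymph node, 4.24 for fat and 2.63 for skin. Calls between partner control limbs and other animals numbered 3 without the count filter, 2 with DESeq2, 2 with limma voom, 0 without the sex term and 7 with the 7 libraries, and 0 to 1 leaving out 1 library. In immobilized limbs they numbered 3 with DESeq2, 0 without the sex term, and 0 to 2 leaving out 1 library. Low immobilized against low control limbs gave 108 without the filter, 28 with DESeq2 and 0 to 1 leaving out 1 library. Tissue differences that changed sign lay near 0: leaving out 1 library gave -0.33 to 0.34 (fat) and -0.029 to 0.14 (skin) in partner control limbs and -0.37 to 0.14 (fat) in partner immobilized limbs. Correlations with Acta1 changed as follows: fat passed after TMM scaling (r = -0.39, adjusted p = 0.0226), skin was 0.097 across control limbs with no replicate block, 0.33 within males, 0.014 in animals 1 to 20 and 0.56 in animals 41 to 59, and lymph node was -0.14 within females, -0.42 in animals 21 to 40 and -0.25 without Ighm. The cause was not tested. The sex difference kept its direction and missed the threshold at 40 and 60%, by CPM of the library total (10.7 points) and by the summed muscle list.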
